A study of Mus musculus with 10 samples.

Results

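The 10 genes described here encode transcription factors, followed across 5 types of mouse heart cell. They are Twist1, Twist2, Snai1, Snai2, Zeb1, Zeb2, Prrx1, Prrx2, Foxc1 and Foxc2. The 10 were taken by gene symbol from the 36172 genes of the deposited table, which holds each of them once, and all 10 entered the test of 14254 genes. RNA was sequenced from cells of the left atrial appendage, the muscular pouch on that atrium, in adult C57BL/6 mice between 8 and 12 weeks of age, with 5 types and 2 libraries each. Types A and B were primary cells grown after digestion in 3 rounds of 5 minutes with collagenase D at 0.1% and with trypsin, at 0.25% (strong) for A and at 0.05% (weak) for B. A was sorted as c-kit+/CD45- and B as c-kit+/CD45+, where c-kit is a receptor of many progenitor cells and CD45 a surface protein of white blood cells. C1, C2 and C3 are cultures that arose from B-type cells: C1 at passage 6, c-kit+/CD45-, C2 at passage 8, c-kit-/CD45-, and C3 at passage 10, c-kit-/CD45-. Digestion and sort both differ between A and B. Time in culture and CD45 sort both differ between B and C1, and passage and c-kit sort between C1 and C2. Within each of these comparisons the 2 cannot be told apart. Whether both libraries of a type stem from different animals or cultures is not said in the labels. The p-values therefore measure the spread between these samples alone, and that spread may be technical.

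The factors form 5 pairs of related genes. Twist1 and Twist2 are basic helix-loop-helix factors that bind E-box DNA, together with E-proteins, in mesoderm and connective tissue. Snai1, Snai2, Zeb1 and Zeb2 are zinc-finger repressors that bind E2-boxes and silence E-cadherin and other epithelial genes in epithelial-mesenchymal transition (EMT), the change by which epithelial cells loosen their junctions and become migratory. In the heart this change gives rise to valve mesenchyme from endocardium and to fibroblasts and mural cells from epicardium. Prrx1 and Prrx2 are paired-related homeobox factors of limb, skull and connective tissue mesenchyme, and Foxc1 and Foxc2 are forkhead factors of paraxial, vascular and cardiac outflow mesoderm.

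RefSeq promoter windows (build GRCm38.p6) were at hand for 7 of the 10 genes, and the 250 bases before the annotated start were searched on both strands for 4 sets of letters. CACCTG, an E2-box as bound by Snail and ZEB factors, was found in 1 of the 7 genes, Snai1, and occurs in 17.2% of all 32851 windows of this length. Any E-box, written CANNTG and overlapping the former, was likewise found in 1, the same site of Snai1, against 66.2% of all windows. TAATTA, a core bound by homeobox factors, was found in 1, Prrx1, against 4.84%, and TAAACA, a forkhead core, in 0 against 12%. The 2 windows with a match to the letters of their own factor family are shown with the match in capitals, beginning 126 bases before the RefSeq start of Snai1 and 173 before that of Prrx1. The RefSeq start of Prrx1 lies inside the gene as GENCODE annotates it, so only the 190 bases before the GENCODE gene are given, and the match begins 113 bases before their end. A match is a description of letters only.
Snai1, chr2:167537945-167538194, plus strand: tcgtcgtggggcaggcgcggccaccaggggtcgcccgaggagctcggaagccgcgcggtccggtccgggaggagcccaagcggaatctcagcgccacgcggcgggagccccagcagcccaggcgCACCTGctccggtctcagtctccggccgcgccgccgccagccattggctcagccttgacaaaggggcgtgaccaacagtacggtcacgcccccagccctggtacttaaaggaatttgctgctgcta
Prrx1, chr1:163313711-163313900, minus strand: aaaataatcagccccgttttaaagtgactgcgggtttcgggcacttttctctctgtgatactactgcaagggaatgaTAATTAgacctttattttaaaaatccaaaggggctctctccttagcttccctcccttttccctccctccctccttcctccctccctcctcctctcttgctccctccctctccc

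Deposited values are on a log2 scale after subtraction of the gene's own median across all libraries, here called centred log2 values, so 0 is the middle of a gene's own libraries and 1 unit is a doubling. For 8 of the 10 genes the number of reads behind each value could be inferred from the fractions of a read on which the values fall, which gives levels comparable between genes per kilobase (kb) of annotated exon. It could not be inferred for Zeb2 and Prrx1. For Foxc1 and Foxc2 a scale smaller by a factor of 2 suited the values nearly as well, and the margin was thin for Zeb1. Depth, as inferred from the value of 1 read, differed 11.5 times between the deepest library (C3 replicate 2) and the shallowest (B replicate 1). Fractions of a read lay most often on steps of 1/60 in both A libraries and of 1/51 in the other 8, so the A libraries differ from the rest in this step as well as in type, and the 2 cannot be told apart in any comparison with A. The A libraries also differed most from each other, with a limma sample weight of 0.347 each against 1.04 to 1.65 for the other types. The sort markers varied within A: centred log2 values of Kit, the c-kit gene, were -0.96 and 3.47, and those of Ptprc, the CD45 gene, 2.74 and 6.35, against 11.46 and 11.41 in B and between -0.01 and 0.01 in C1, C2 and C3. Values with ± are log2 differences with limma's standard error, 2 libraries a type. This error pools a gene's spread within all 5 types, so it is the same in every comparison of that gene. The spread of types outside a comparison therefore enters it. A gene is said to rise or fall where limma's Benjamini-Hochberg adjusted p was under 0.05 and the log2 difference at least 1. Quantile normalization, one of the alternatives, was run on the centred log2 values. It gives every library the same distribution of deviations from the gene medians, and levels do not enter it. The order of types also uses 4 further pairs, in which 18.4% (A and C2), 33.9% (B and C2), 41.4% (B and C3) and 34.8% (C1 and C3) of all tested genes were called. In these bulk samples fewer cells of a type and less RNA per cell cannot be told apart.

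**Figure D1:**
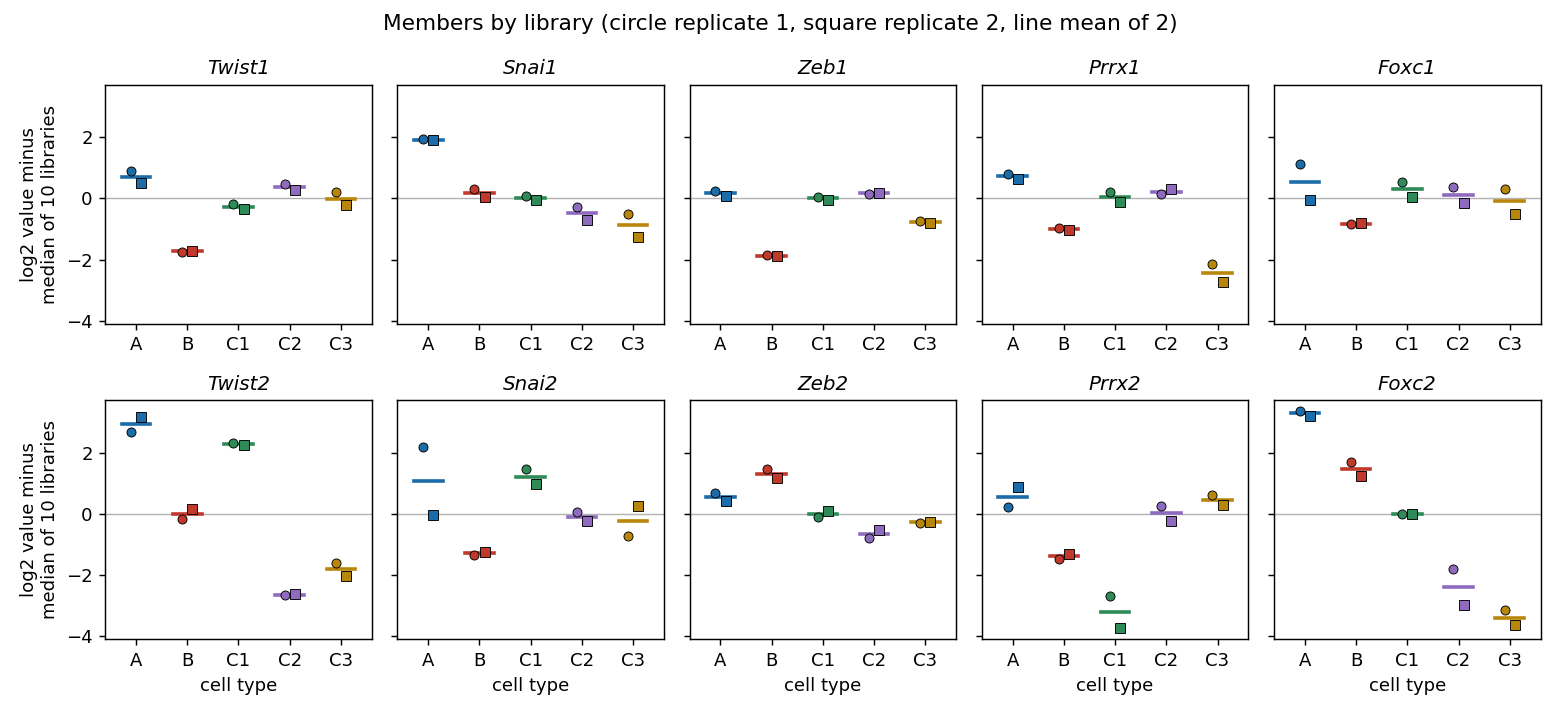
Centred log2 values (log2 value minus the gene's median over 10 libraries, y axis) of the 10 factors by cell type (x axis). Circles are replicate 1, squares replicate 2 and lines the mean of the 2. Both B libraries lie lowest for Twist1, Snai2, Zeb1 and Foxc1, and Foxc2 runs from 3.35 in A to -3.64 in C3.

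Twist1 (chr12:33957671-33959829), needed for cranial mesenchyme and heart valve growth, was lowest in B. On the centred log2 scale its 2 libraries stood at 0.89 and 0.51 for A, -1.74 and -1.71 for B, -0.20 and -0.36 for C1, 0.46 and 0.26 for C2, and 0.20 and -0.22 for C3. The B libraries lay below the other 8, which ran from -0.36 to 0.89. Twist1 fell by 2.42 ± 0.20 from A to B (limma adjusted p = 0.000231) and rose by 1.44 ± 0.20 from B to C1 (limma adjusted p = 0.00114). For a pseudocount of 1, each gene's lowest library was first set to 1 on the unlogged scale. The rise was then 0.90, short of the fold for a call. For Twist1 the 1 added stands for 96.3 normalized reads, so this setting shrinks differences of well-read genes too. In the order A, C2, C3, C1, B only the last step, C1 to B, passed the test.

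Twist2 (chr1:91801461-91848028), a paralog known from dermis and fibroblasts, ran over a wider range. On the centred log2 scale A stood at 2.68 and 3.16, B at -0.16 and 0.16, C1 at 2.30 and 2.25, C2 at -2.66 and -2.63, and C3 at -1.59 and -2.02, and no 2 types overlapped. It fell from A to B by 2.92 ± 0.22 (limma adjusted p = 0.000182), rose from B to C1 by 2.28 ± 0.22 (limma adjusted p = 0.000277) and fell by 4.92 ± 0.22 from C1 to C2 (limma adjusted p = 5.32e-05). Few reads stand behind the low end: 2.0 and 4.0 in the C2 libraries against 126.0 and 182.9 in C1 and 97.9 and 120.0 in A. The mean of C2, 4.11 normalized reads, lay below the 3-read limit of its shallower library (6.12) but above that of the deeper one (3.11). C1 exceeded C2 by 30.1 times (95% interval 13.7 to 82.7) and A exceeded C2 by 47.3 times (21.4 to 130), in exact intervals that cover counting error only. In the order A, C1, B, C3, C2 the steps C1 to B and B to C3 passed the test, while A over C1 (0.64 ± 0.22, limma adjusted p = 0.0547) and C3 over C2 (0.84 ± 0.22, limma adjusted p = 0.021) did not reach the call. Quantile normalization turned the first of these 2 to C1 above A by 1.15 (limma adjusted p = 0.00259, with 0.00259 to 0.204 over all alternatives) and called the second at 1.96.

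Snai1 (chr2:167538195-167542814), a Snail repressor necessary for gastrulation, stood highest in A. Its centred log2 values were 1.94 and 1.90 for A, 0.31 and 0.06 for B, 0.08 and -0.06 for C1, -0.27 and -0.71 for C2, and -0.52 and -1.25 for C3. Both A libraries lay above the other 8, and the means descended from A through B, C1 and C2 to C3. The only neighbouring step to pass the test was A to B, a fall by 1.74 ± 0.27 (limma adjusted p = 0.00254). From B to C1 the difference was -0.18 ± 0.27 (limma adjusted p = 0.611). Over the wider gaps Snai1 fell by 1.91 ± 0.27 from A to C1 (limma adjusted p = 0.00186) and by 2.81 ± 0.27 from A to C3 (limma adjusted p = 0.000233).

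Snai2 (chr16:14705852-14709385), also called Slug, which acts in neural crest and endocardial cushion cells, differed widely between the 2 A libraries. Values were 2.17 and -0.05 for A, -1.33 and -1.23 for B, 1.47 and 0.97 for C1, 0.05 and -0.23 for C2, and -0.71 and 0.25 for C3. B lay below all other libraries, while A overlapped C1, C2 and C3. Replicates lay 2.23 apart in A, 0.11 in B and 0.51 in C1, and the pooled error carries the gap of A into every comparison. Snai2 fell from A to B by 2.34 ± 0.68 (limma adjusted p = 0.0317) and rose from B to C1 by 2.50 ± 0.68 (limma adjusted p = 0.0196). Without A replicate 1 the first was -1.23 (limma adjusted p = 0.0613), and it also lost its call without either B or either C2 library, in a fit of the 4 libraries alone and with a pseudocount, with adjusted p between 0.00127 and 0.147 over all alternatives. The second lost its call without either B or either C1 library, where it lay between 2.25 and 2.75, with adjusted p of 0.00135 to 0.0954 over all alternatives. No neighbouring step in its order of C1, A, C2, C3 and B passed the test.

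Zeb1, on chromosome 18, a repressor with zinc-finger clusters and a homeodomain, had tight replicates. It stood at 0.23 and 0.09 for A, -1.86 and -1.88 for B, 0.05 and -0.05 for C1, 0.13 and 0.19 for C2, and -0.73 and -0.82 for C3. B was lowest, C3 next, and A, C1 and C2 lay between -0.05 and 0.23. Zeb1 fell by 2.03 ± 0.12 from A to B (limma adjusted p = 8e-05) and rose by 1.87 ± 0.12 from B to C1 (limma adjusted p = 5.81e-05). From C2 to C3 it differed by -0.94 ± 0.12 (limma adjusted p = 0.0014), below the fold needed for a call.

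Zeb2 (chr2:44983632-45117395), the paralog that also keeps the identity of tissue macrophages, went the other way. Centred log2 values were 0.69 and 0.43 for A, 1.45 and 1.16 for B, -0.10 and 0.10 for C1, -0.79 and -0.52 for C2, and -0.30 and -0.26 for C3. Both B libraries exceeded the other 8, and no 2 types overlapped. B over A, 0.75 ± 0.18, did not reach the fold for a call (limma adjusted p = 0.0146), and Zeb2 fell from B to C1 by 1.31 ± 0.18 (limma adjusted p = 0.00105). That difference was -0.87 under quantile normalization and -0.95 with a pseudocount, short of the fold for a call. The kit does not mark strand, and Zeb2, Zeb1, Twist2 and Prrx1 overlap annotated antisense genes (Zeb2os for Zeb2), whose reads would not be separable.

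Prrx1 (chr1:163245119-163313710), a factor of fibroblast and mesenchymal progenitor cells, was lowest in C3. The values were 0.81 and 0.63 for A, -0.97 and -1.02 for B, 0.21 and -0.13 for C1, 0.13 and 0.29 for C2, and -2.13 and -2.72 for C3. C3 lay below B, and B below A, C1 and C2. It fell from A to B by 1.71 ± 0.23 (limma adjusted p = 0.00139), rose from B to C1 by 1.03 ± 0.23 (limma adjusted p = 0.00809) and fell from C2 to C3 by 2.63 ± 0.23 (limma adjusted p = 0.000273). Without C1 replicate 1 the rise to C1 was 0.86 and not called (limma adjusted p = 0.0538, with 0.0032 to 0.0538 over all alternatives), and with a pseudocount it was 0.85.

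Prrx2 (chr2:30834972-30881251), which overlaps with Prrx1 in limb and craniofacial mesenchyme, was lowest in C1 instead. Centred log2 values were 0.22 and 0.87 for A, -1.47 and -1.30 for B, -2.67 and -3.74 for C1, 0.26 and -0.22 for C2, and 0.63 and 0.29 for C3. The C1 libraries lay below B, and both below the other 6. Behind C1 stood 18.1 and 13 reads, against 67.7 and 95.7 in C2 and 691.9 and 713.9 in C3. Prrx2 fell by 1.93 ± 0.39 from A to B (limma adjusted p = 0.00768) and by 1.82 ± 0.39 from B to C1 (limma adjusted p = 0.00745), then rose by 3.22 ± 0.39 from C1 to C2 (limma adjusted p = 0.0014). In reads C2 exceeded C1 by 8.99 times (95% counting interval 6.1 to 13.7). A, C3 and C2 were not separated by the test.

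Foxc1 (chr13:31806633-31812476), a regulator of eye, skull and vessel development, varied least of the 10. It stood at 1.11 and -0.04 for A, -0.85 and -0.82 for B, 0.54 and 0.04 for C1, 0.37 and -0.16 for C2, and 0.32 and -0.50 for C3. B was below all other libraries, which overlapped with one another across types. Its fall from A to B, 1.38 ± 0.44, just passed (limma adjusted p = 0.0446) and was lost under 12 of 17 alternatives, with adjusted p from 0.0109 to 0.168. Without A replicate 1 it was -0.80. No neighbouring types in its order passed the test.

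Foxc2 (chr8:121116171-121118895), known for lymphatic valves and the outflow tract, ran over the widest range, 6.99 log2 units between libraries. The values were 3.35 and 3.21 for A, 1.71 and 1.24 for B, 0.00 and -0.00 for C1, -1.80 and -2.97 for C2, and -3.13 and -3.64 for C3. No 2 types overlapped, and each type lay below the one before it. Foxc2 fell by 1.81 ± 0.38 from A to B (limma adjusted p = 0.00947), by 1.47 ± 0.38 from B to C1 (limma adjusted p = 0.0166) and by 2.39 ± 0.38 from C1 to C2 (limma adjusted p = 0.00417). The last step, C2 to C3, was -1.0 ± 0.38 and was not called (limma adjusted p = 0.0721), and it was 0.71 under quantile normalization. Without B replicate 2 the first difference was -1.57 (limma adjusted p = 0.0631, with 0.00311 to 0.0631 over all alternatives). The fall from B to C1 lost its call without B replicate 1 (-1.24) and without either C1 library (-1.47), and under quantile normalization it was -0.97 (limma adjusted p = 0.137, with 0.0043 to 0.137 over all alternatives). From A to C3 Foxc2 fell by 6.66 ± 0.38 (limma adjusted p = 3.03e-05), a ratio of 101 between the means. An annotated gene, Gm20388, spans Foxc2 on its own strand. Same-strand genes also overlap Twist2 (Gm29101), Zeb1 (Gm22709), Zeb2 (Mir5129) and Prrx1 (Gm26523 and Gm37644). No source used here says how shared reads were counted.

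Per kb of exon, Snai1 had the highest level of the 8 genes with inferred reads in every library. The margin behind the read scale of Snai1, 5.07 natural-log units, was the smallest of the 8 after Zeb1 (3.20). It does not cover scales off by a simple factor, and 0 of 8 libraries of Snai1 lay on whole reads. Its first place therefore rests on the inferred scale, most of all in C3, where Twist1 is close. The mean of Snai1 was 1950.0 normalized reads per kb in A, 588.0 in B, 519.0 in C1, 371.0 in C2 and 287.0 in C3. Behind it came Foxc2 in A (405.0) and B (117.0), Snai2 in C1 (257.0), and Twist1 in C2 (254.0) and C3 (198.0). Twist2 was lowest in B (8.15), C2 (1.3) and C3 (2.35), and Prrx2 was lowest in C1 (6.86). If the smaller scale holds for Foxc2, its levels are lower by a factor of 2. Twist1 (322.0 in A and 59.6 in B) would then lie above it there, and Foxc2 (4.05) would take the lowest place in C3. Twist1 exceeded Twist2 in all 5 types on this scale, with the smallest ratio in C1 (162.0 against 39.2).

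**Figure D2:**
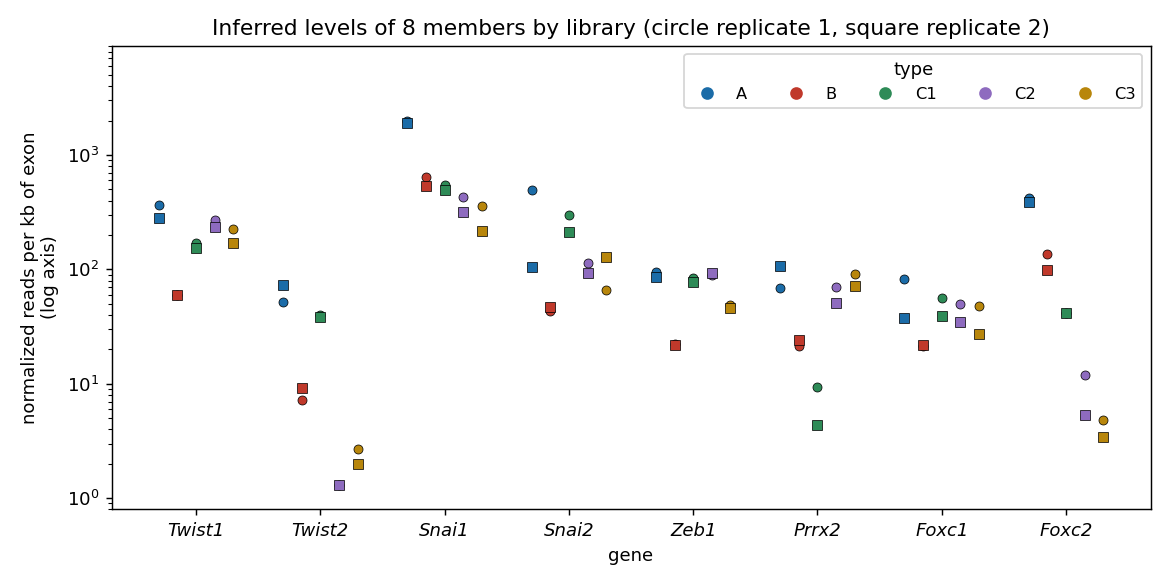
Normalized reads per kb of annotated exon (y axis, log scale) in each library for the 8 factors whose reads could be inferred (x axis), coloured by cell type. Circles are replicate 1 and squares replicate 2. Snai1 lies highest in every library and Twist2 in C2 lowest, at 1.3.

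The balance within a pair, taken as the first gene's centred log2 value minus the other's in each library, was compared across the 5 types by an exact permutation test over all 945 ways to divide the libraries. The smallest p this design can give is 0.00106, and p-values were adjusted over the 5 pairs. Foxc1 over Foxc2 rose along the types, with means of -2.74 in A, -2.31 in B, 0.29 in C1, 2.49 in C2 and 3.29 in C3 (exact permutation adjusted p = 0.00529). Zeb1 over Zeb2 was -3.31 and -3.05 in the B libraries and between -0.56 and 0.93 in the other 8 (exact permutation adjusted p = 0.00529). Twist1 over Twist2 divided the types into A, B and C1, between -2.65 and -1.57, and C2 and C3, between 1.79 and 3.11 (exact permutation adjusted p = 0.0106). Prrx1 over Prrx2 was 2.88 and 3.60 in C1, -2.76 and -3.01 in C3 and between -0.24 and 0.59 elsewhere (exact permutation adjusted p = 0.0198). For Snai1 over Snai2 the test did not pass (exact permutation adjusted p = 0.159), with -0.23 and 1.96 in the 2 A libraries. It passed under quantile normalization (0.0392) and without A replicate 1 (0.0476). The test runs across all types and does not say which differ.

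**Figure D3:**
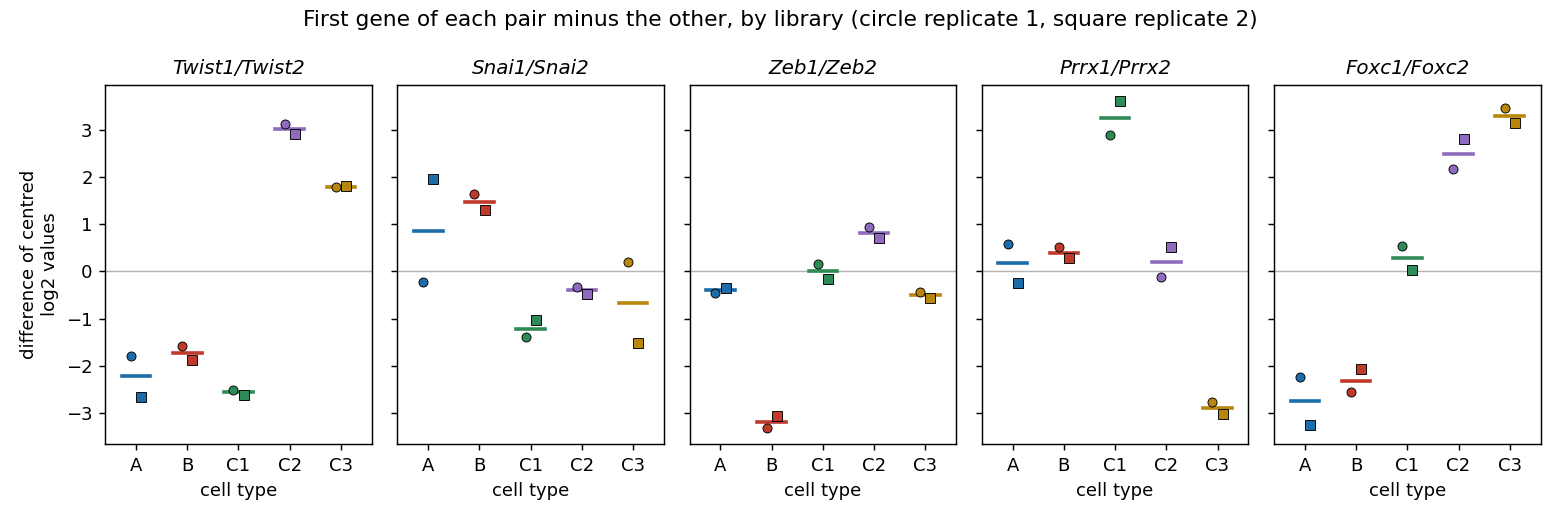
Difference of centred log2 values within each pair of related genes, the first minus the other (y axis), by cell type (x axis). Circles are replicate 1, squares replicate 2, lines the mean of the 2; 0 is the middle of each gene's own libraries and not an equal level. Twist1 over Twist2 is below 0 in A, B and C1 and above 0 in C2 and C3.

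From A to B, 9 of the 10 factors fell and 0 rose, with Zeb2 not passing, where 12.4% of all tested genes were called lower and 14.5% higher. Their differences ran from -2.92 (Twist2) to 0.75 (Zeb2), with a median of -1.87 beside 0.01 over all tested genes, and for all 10 the A and B libraries did not overlap, as was the case for 69.3% of all tested genes. Among all genes 2066 were called higher and 1769 lower, and 1484 and 1714 after quantile normalization. Twist1, Twist2, Snai1, Zeb1, Prrx1, Prrx2 and Foxc2 were called with either A library left out, while Snai2 and Foxc1 were not without A replicate 1. The fewest calls, 6, came without B replicate 2. Macrophage markers moved in the opposite direction: 16 of 16 rose, with a median difference of 7.44. Over the 6 of them with a known level (Ptprc, Emr1, Tyrobp, Aif1, Cx3cr1 and Cd74), summed normalized reads were 18.1 and 395 in A and 24023 and 23097 in B. Of 9 epicardial and mesothelial markers 6 rose and 1 fell (median 3.94), and of 8 mural markers 1 rose and 3 fell (median -0.97). Endothelial markers rose in 2 of 9 cases and Schwann cell markers in 2 of 4, with 0 falling, and cardiomyocyte markers were called in 0 of 4, with Myh6 and Sln listed at 0 in every library. The 2 Schwann cell genes, Sox10 and Erbb3, passed the read filter through B alone. The part of these shifts in the fall of the factors was not tested. Within A, replicate 2 had the higher macrophage sum. Sums over genes of known level were also higher in replicate 2 for endothelial (122 and 199) and mural markers (225 and 583). For Schwann cell markers the sum was lower in replicate 2 (32.9 and 23.8). Twist2 and Prrx2 were higher in replicate 2 than in replicate 1. Twist1, Snai1, Snai2, Zeb1, Zeb2, Prrx1, Foxc1 and Foxc2 were lower in it, Snai2 by most (2.23) and Snai1 by least (0.04).

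From B to C1, where the CD45 sort changes along with time in culture, 5 factors rose (Twist1, Twist2, Snai2, Zeb1 and Prrx1). Another 3 fell (Zeb2, Prrx2 and Foxc2) and 2 did not pass (Snai1 and Foxc1), where 12.6% of all tested genes were called higher and 21.1% lower. Among all genes 1799 were called higher and 3005 lower, and 2290 and 2240 after quantile normalization. The factors' median difference was 1.08 beside -0.07 over all genes. The count fell to 5 with a pseudocount and without C1 replicate 1. Foxc1, at 1.13 ± 0.44 (limma adjusted p = 0.0696), was called without either A library (limma adjusted p = 0.028, with 0.0178 to 0.264 over all alternatives). Macrophage markers fell in 16 of 16 cases, with a median of -10.04, and their summed level in C1 was 19.1 and 13.3 normalized reads, with 1 and 4 of the 6 at the floor of 1 normalized read. Endothelial markers fell in 8 of 9 tested cases (median -4.93), mural markers in 5 of 8 (median -1.64), Schwann cell markers in 3 of 4 and cardiomyocyte markers in 1 of 4, with 0 rising. The Schwann cell falls include Sox10 and Erbb3, which passed the read filter through B alone. Of 9 epicardial and mesothelial markers 1 rose and 2 fell. The part of these shifts was not tested. B is in both this and the former comparison, so their values for a factor are not independent.

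From C1 to C2, where the c-kit sort changes too, Prrx2 rose, Twist2 and Foxc2 fell and 7 factors did not pass, where 12.2% of all tested genes were called higher and 8.18% lower. All genes were called in 1740 cases higher and 1166 lower, and in 1948 and 2014 after quantile normalization. The differences of the factors ran from -4.92 to 3.22 around a median of -0.34, beside 0.00 over all genes. Snai2, at -1.31 ± 0.68, was not called in the fit of all libraries (limma adjusted p = 0.18) but was without either A library (limma adjusted p = 0.0241, with 0.0241 to 0.444 over all alternatives). Macrophage markers were called in 0 of 16 cases. Epicardial and mesothelial markers rose in 4 of 9, led by Lrrn4, Bnc1 and Gpm6a, endothelial markers in 4 of 9, mural markers in 3 of 8 and cardiomyocyte and Schwann cell markers in 1 of 4 each, with 0 falling in these lists. The part of these shifts was not tested.

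From C2 to C3 Prrx1 alone was called among the 10, a fall, where 11.6% of all tested genes were called higher and 16.2% lower. These were 1657 and 2315 genes, or 2080 and 1865 after quantile normalization. The other 9 lay between -1.0 (Foxc2) and 0.84 (Twist2). The median was -0.28 beside 0.00 over all genes. A further factor was called without C3 replicate 2 (Twist2, 1.06) and without C2 replicate 2 (Foxc2, -1.59). Twist1 was -0.37 ± 0.20, Snai1 -0.40 ± 0.27 and Prrx2 0.45 ± 0.39, none past the test. Mural markers fell in 4 of 8 cases with 0 rising (median -1.84), epicardial and mesothelial markers rose in 3 of 9 and fell in 1, and macrophage markers were called in 0 of 16. Endothelial, cardiomyocyte and Schwann cell markers each had 1 rise and 1 fall. The cardiomyocyte rise, of Myl7, passed the read filter through C3 alone. The part of these shifts was not tested.

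C1 and A share the c-kit+/CD45- sort but not their digestion or time in culture. Between them Snai1, Prrx2 and Foxc2 were lower in C1 and 7 factors did not pass, where 10.1% of all tested genes were called higher and 16.6% lower (1433 and 2365 genes, or 2219 and 2105 after quantile normalization). Twist1, at -0.98 ± 0.20, had an adjusted p of 0.00795 with limma and lay just short of the fold for a call, and was called without A replicate 2 (-1.17) and without C1 replicate 1 (-1.06). Zeb1 differed by -0.16 ± 0.12 and Foxc1 by -0.25 ± 0.44. Snai2, at 0.16 ± 0.68, was 1.27 without A replicate 1 (limma adjusted p = 0.0485) and -0.95 without A replicate 2 (limma adjusted p = 0.113, with 0.0485 to 0.95 over all alternatives). The median of the 10 was -0.66 beside -0.04 over all genes. Of 8 mural markers 6 fell and 1 rose (median -3.49), and endothelial markers fell in 6 of 9 cases with 0 rising (median -4.03). Of 9 epicardial and mesothelial markers 6 rose and 2 fell (median 4.21), and of 16 macrophage markers 1 rose and 5 fell. Schwann cell markers fell in 2 of 4 cases and cardiomyocyte markers in 1 of 4. The part of these shifts was not tested.

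At the far ends, C3 against A, Twist2, Snai1, Prrx1 and Foxc2 were lower in C3 and 6 factors did not pass, where 14.4% of all tested genes were called higher and 19.9% lower (2051 and 2841 genes, or 2388 and 2094 after quantile normalization). All 10 differences lay below 0, from -6.66 (Foxc2) to -0.08 (Prrx2), with a median of -1.11 beside -0.02 over all genes. For Prrx2 the sign turned without A replicate 2 (0.24) and without C3 replicate 2 (0.09). Zeb1 (-0.93 ± 0.12) and Zeb2 (-0.84 ± 0.18) had limma adjusted p of 0.000954 and 0.00693 but less than the fold for a call. Without A replicate 2, 7 factors were called, with Zeb1 (-1.0), Snai2 (-2.40) and Foxc1 (-1.21) added. Of 9 epicardial and mesothelial markers 6 rose and 2 fell (median 5.25), with Aldh1a2 at -10.36, and of 9 endothelial markers 1 rose and 6 fell (median -4.03). Mural markers fell in 5 of 8 cases and rose in 1 (median -2.56), macrophage markers fell in 7 of 16 with 0 rising, cardiomyocyte markers rose in 2 of 4 and fell in 1, and Schwann cell markers fell in 1 of 4. Of the cardiomyocyte rises, Myl7 passed the read filter through C3 alone. The part of these shifts was not tested.

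**Figure D4:**
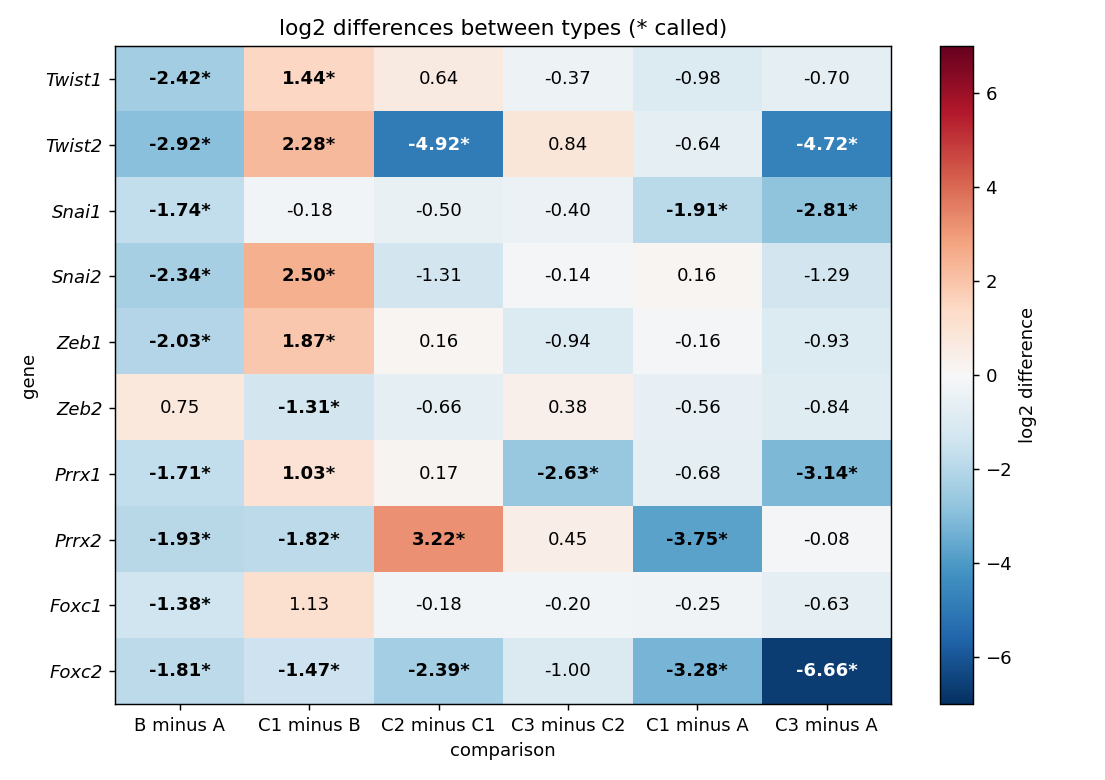
log2 difference between cell types (colour and number, type named first minus the other) for the 10 factors (rows) in 6 comparisons (columns). Bold numbers with an asterisk passed limma's adjusted p under 0.05 and a log2 difference of at least 1. The B minus A column holds 9 called falls and the C3 minus C2 column 1.

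Genes for proteins that work with these factors were counted in the same way. Of 7 genes for E-proteins, which pair with Twist factors, and Id proteins, which block E-proteins, 1 rose and 2 fell from A to B. Among all tested genes 14.5% were called higher and 12.4% lower there. Id2 rose by 2.92 ± 0.38 (limma adjusted p = 0.0013) while Tcf3 and Id3 fell. Id2 then fell from B to C1 by 2.90 ± 0.38 (limma adjusted p = 0.000887), with centred log2 values of 3.25 and 3.26 in B and between -1.02 and 0.77 elsewhere. Id4 rose from C1 to C2 by 2.48 ± 0.33 and fell by 3.38 ± 0.33 from C2 to C3 (limma adjusted p = 0.00191 and 0.000419). Of 13 tested corepressors and enzymes of Snail turnover, at most 2 were called in any of the 6 comparisons. In either direction 2906 (C1 to C2) to 4892 (C3 against A) of the 14254 tested genes were called. The 2 called between C1 and A both fell, where 16.6% of all tested genes were called lower. Pak1, a kinase that phosphorylates Snail, fell from A to B by 1.05 ± 0.28 (limma adjusted p = 0.0212), and Hdac1, a histone deacetylase, differed by -1.09 ± 0.20 between C1 and A (limma adjusted p = 0.00505).

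Of 24 tested genes for other transcription factors of mesenchyme, 12 fell and 0 rose from A to B (median -1.35), led by Nr2f1 (-3.67), Nr2f2 (-2.60) and Hic1 (-2.60). Of all tested genes 12.4% were called lower and 14.5% higher there. From B to C1, 8 rose and 2 fell, led by Mkx (5.01), Sox11 (4.14) and Foxf2 (3.78), beside 12.6% higher and 21.1% lower of all tested genes. Between C1 and C2, 3 rose and 3 fell, beside 12.2% higher and 8.18% lower of all tested genes. The falls were the largest changes: Foxs1 (-4.19), Tcf21 (-4.07), a factor of epicardium-derived fibroblasts, and Foxd1 (-4.04). Foxd1 passed the read filter through C1 alone. From C2 to C3, 2 rose and 6 fell, beside 11.6% higher and 16.2% lower of all tested genes. Tcf21 shared the drop of Twist2 from C1 to C2, with centred log2 values of 1.11 and 0.46 in C1 and -3.25 and -3.31 in C2.

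Ligands, receptors and effectors of the signals that induce these factors in development fell from A to B in 12 of 25 tested cases and rose in 1 (median -0.78), led by Egfr (-2.54), Pdgfra (-2.29) and Fgfr1 (-1.89). Of all tested genes 12.4% were called lower and 14.5% higher there. From B to C1, 8 rose, among them Egfr (3.13) and Bmpr1a (2.08), and 4 fell, Hey1 by most (-4.26). The shares of all tested genes were 12.6% higher and 21.1% lower. From C1 to C2, 2 rose and 5 fell, beside 12.2% higher and 8.18% lower of all tested genes. From C2 to C3, 7 fell and 1 rose, beside 16.2% lower and 11.6% higher of all tested genes. Pdgfra, a receptor of fibroblasts and mesenchymal progenitors, fell by 3.50 ± 0.23 there (limma adjusted p = 0.000109), with values of 0.35 and 0.38 in C2 and -2.79 and -3.47 in C3, the step at which Prrx1 fell.

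Epithelial genes, many of them targets of Snail and ZEB repressors, had 14 of 24 members tested, with Esrp1 and Elf3 listed at 0 in every library. From A to B, 4 rose and 2 fell, led by Tjp3 (4.83), St14 (4.27) and Krt18 (3.34), where 14.5% of all tested genes were called higher and 12.4% lower. Without the B libraries neither Tjp3 nor St14 would have passed the read filter, so their rises follow in part from that filter. From B to C1, 1 rose and 6 fell, beside 12.6% higher and 21.1% lower of all tested genes. From C1 to C2, 4 rose and 0 fell (median 1.04), beside 12.2% higher and 8.18% lower. From C2 to C3, 5 rose and 5 fell, beside 11.6% higher and 16.2% lower of all tested genes. Krt19 rose by 5.79 ± 0.82 and Krt18 by 5.57 ± 0.44 while Krt7 fell by 6.21 ± 0.92 (limma adjusted p = 0.00175, 0.000212 and 0.00207). Cdh1, which encodes E-cadherin, was higher in C3 than in A by 4.56 ± 1.07 (limma adjusted p = 0.0106), with values of -4.00 and -3.06 in A and 1.29 and 0.79 in C3. Mesenchymal matrix and adhesion genes fell from A to B in 15 of 25 cases with 0 rising (median -1.12), as 9 of the 10 factors did. From B to C1, however, 11 of these fell and 4 rose (median -0.62), led by Thy1 (-9.72) and Postn (-3.30), while 5 of the 10 factors rose. From C1 to C2, 9 rose and 2 fell, and from C2 to C3, 3 rose and 17 fell (median -1.83). The shares of all tested genes are those given above for each step.

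**Figure D5:**
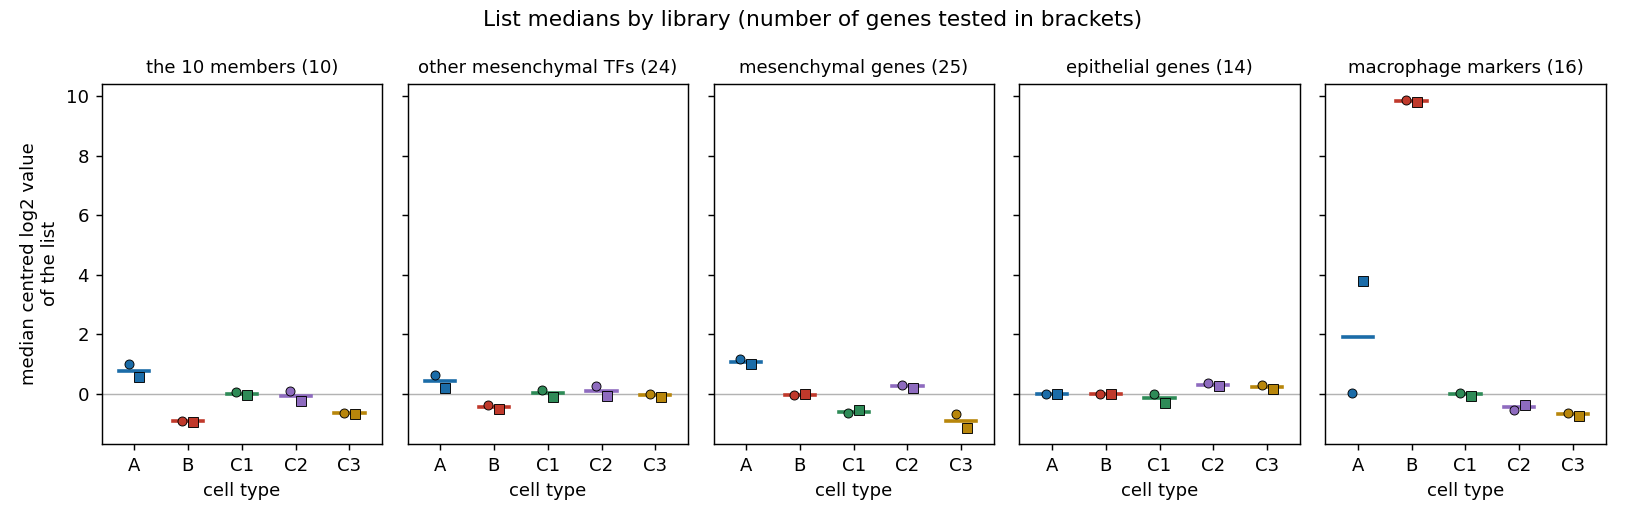
Median centred log2 value of each gene list (y axis) by cell type (x axis), with the number of tested genes in brackets. Circles are replicate 1, squares replicate 2, lines the mean of the 2. The median of the 10 factors is lowest in B (-0.91 and -0.92), where that of the macrophage markers is highest (9.86 and 9.80).

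Across the 10 libraries, which fall into 5 types and therefore share their type, the factors were related to different partners, described here by Pearson's r over 10 libraries. Snai1 and Foxc2 (0.92), Twist1 and Zeb1 (0.90) and Twist2 and Foxc2 (0.82) were the closest pairs, and Zeb1 and Zeb2 (-0.66) and Twist1 and Zeb2 (-0.65) the most opposed. Between related genes r was 0.06 for Twist1 and Twist2, 0.35 for Snai1 and Snai2, -0.14 for Prrx1 and Prrx2 and 0.12 for Foxc1 and Foxc2. Among all tested genes those most like Twist1 were Cnn3 (0.989), Bahcc1 (0.984) and Ryk (0.981). For Prrx1 they were Col16a1 (0.983), Clip3 and BC018242 (both 0.981), and for Zeb2 Tnfrsf21 (0.984), Hpse (0.982) and Pcbd2 (0.980). For Twist2 they were Gm6484 (0.988), Wipi1 (0.986) and Ntng2 (0.969), and for Foxc2 Dap (0.982), Layn (0.979) and Gria4 (0.976).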

How the data were processed

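Libraries of total RNA from 10 samples were prepared with the TruSeq RNA kit version 2 of Illumina, which does not mark strand, per the labels' protocols. The submitters' processing notes name TopHat, DESeq and the mouse build mm10, with no version or role, and no source used here gives the counter or the annotation. The authors deposited log2 values, read from the values themselves as log2 of scaled reads, not under 1, minus each gene's median. No source states this. Of its 36172 genes, 18334 were 0 in every library and 17 held a cell that was no number; those were left out.

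A gene had to reach 10 normalized reads in at least 2 libraries, which can act only where a level is known (4762 genes), leaving 14254. Some listed genes passed only through the type where they are high, so their difference from the other types is in part fixed by this filter. limma 3.58.1 in R 4.3.3 was fitted to all 10 libraries with a mean per type, without a trend since levels are removed (5 residual degrees of freedom). Tests were two-sided, adjusted by Benjamini-Hochberg over all tested genes within a comparison, and called at 0.05 with a log2 difference of at least 1. The value of 1 read per library came from the spacing of low values (up to 20 reads), of which 32.9% to 70.6% lay within 0.01 of a whole read. Because so few were whole, no test on counts was run and totals per library are unknown. Reads behind a gene were inferred as the scale on which the 8 libraries of B, C1, C2 and C3 fall on steps of 1/51 of a read. It had to lead the next unrelated scale by a margin of 3 natural-log units. Simple multiples and fractions of the chosen scale were not counted as rivals, and only the scale smaller by a factor of 2 was compared separately. The margin therefore does not exclude a scale that is off by another simple factor. Counting intervals are exact at 95%. Gene models are GENCODE M21 on GRCm38, the same build as mm10. The procedures were tested on simulated data. For the inferred reads, every simulated partial read lay on its library's step. In the deposited values 42.2% to 62.1% of low partial values did, so the simulation was an easier case than the data.

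The 10 factors and all gene lists were chosen with earlier results of these data known. From each other list at most 3 called genes with the largest differences were named in a comparison, and for a factor at most the 3 genes of highest r. The alternatives tried were other scalings, filters, weights and a pseudocount of 1, a fit of 4 libraries, the replicate number as a block, the adjusted p alone and leaving out each library.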

Additional observations from a re-analysis of the deposited data

How the results depend on the processing

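Of 1020 results on single factors under alternatives, 956 kept their direction and call, and 60 of 60 did with library medians set to 0. Single factors turned direction under quantile normalization for Snai1 (0.09) and Foxc2 (0.71) from C2 to C3 and for Twist2 between C1 and A (1.15). Without 1 library, Foxc1 from C1 to C2 turned, at 0.07 and 0.08 (range -0.45 to 0.08), Foxc1 from C2 to C3 at 0.07 and 0.21 (-0.61 to 0.21), Snai2 from C2 to C3 at 0.34 (-0.63 to 0.34), Snai2 between C1 and A at -0.95 and -0.09 (-0.95 to 1.27), Foxc1 between C1 and A at 0.32 and 0.00 (-0.83 to 0.32), and Prrx2 between C3 and A at 0.24 and 0.09 (-0.41 to 0.24). None of these was called in the fit of all libraries, and Twist2 was called once turned. The cause was not tested.

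With a fit of only the 4 libraries compared, which has fewer samples, all genes called were 2538 from A to B and 2375 between C1 and A. With the adjusted p alone, factors called were 5 from C1 to C2, 3 from C2 to C3, 6 between C1 and A and 7 between C3 and A, and all genes called were 7337 from B to C1, 5025 from C1 to C2, 6359 from C2 to C3, 6202 between C1 and A and 7414 between C3 and A. With a pseudocount 5 factors were called from B to C1, and under quantile normalization 2 from C2 to C3, where Snai1 over Snai2 had an exact permutation adjusted p of 0.0392. Without 1 library, factors called ranged from 6 to 9 from A to B, 5 to 9 from B to C1, 3 to 4 from C1 to C2, 1 to 2 from C2 to C3, 3 to 4 between C1 and A and 4 to 7 between C3 and A, and the adjusted p of Snai1 over Snai2 from 0.0476 to 0.287 (exact permutation).

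Deviations from the type means correlated between same-numbered libraries by -0.06 to 0.09, so no pairing by replicate number was seen across genes. A small shared effect, or one confined to few genes, would not show in this value, and the labels do not settle it. With the number as a replicate block, the rise of Foxc1 from B to C1 (1.13) was called (limma adjusted p = 0.0191), 9 factors were called there, and no other call on a factor changed. Depth limits Twist2 in C2 most, with 6 reads in all.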
